A study of Mus musculus with 30 samples.

Results

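Expression of 10 genes of the Notch signalling pathway was measured in 30 mouse thyroid RNA sequencing libraries. They are the ligands Jag1, Jag2, Dll1 and Dll4, the receptors Notch1, Notch2, Notch3 and Notch4, and the targets Hes1 and Hey1. They are 10 of the 50686 genes in the count tables. The genes were chosen by name, as a pathway list drawn up with earlier results of these same libraries in view, and the measured values that led to the choice are not recorded. The differences given for them are therefore descriptions of these libraries and do not stand as independent evidence of a direction. All 10 had reads in every library and passed the filter on low counts in every fit, so none is missing from the counts of genes given below.

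Notch receptors are single-pass membrane proteins that bind Jagged and Delta-like ligands on neighbouring cells. Binding leads to cleavage of the receptor by an ADAM protease and then by gamma-secretase, and the released intracellular domain joins the DNA-binding protein RBPJ in the nucleus. Genes of the Hes and Hey families, which encode transcriptional repressors, are the usual direct targets. In vessels, Dll4, Notch1 and Notch4 are known from endothelial cells, and Notch3 from the mural cells around them.

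The libraries came from thyroids of C57BL/6 mice, with 3 libraries in each of 10 groups. Of these, 8 groups crossed genotype (FAD4T or wild type), sex, and age of 2 or 8 months. The labels do not say what FAD4T stands for, which allele or transgene the mice carry or what drives it, or whether wild-type mice were littermates. A further 2 groups held wild-type males, 2 and 18 months old, listed apart in the series design as a comparison of young and ageing glands. Titles number the 2-month wild-type males 1 to 6, and numbers 4 to 6 were taken as the controls of the 18-month males; the labels do not state this, so results that rest on it are also given with the other choices. The design text counts 3 mice in each group and does not say whether they shared litters or cages, so the p-values speak to the spread between these animals only.

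Library totals ranged from 14083958 to 20256049 counts assigned to genes, and no pair of libraries held identical values. Tg, which encodes thyroglobulin, had a median of 185000 CPM (counts scaled to the same total in each library) and was at least 37900 in all 30 libraries, and Pax8, a follicular transcription factor, ranged from 320.0 to 648.0 CPM. A set of 5 libraries stood apart by thymocyte transcripts: FAD4T males of 2 months 2 and 3, FAD4T females of 2 months 1 and 2, and FAD4T male of 8 months 1. The mean log2(CPM + 1) over 9 thymocyte genes was 3.04 to 5.04 in those 5 and 0.46 to 1.86 in the other 25. All 5 carry FAD4T, so comparisons with FAD4T mice were also fitted without them.

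CPM levels were computed after scaling of the 30 libraries by TMM, a method that corrects totals for a few very abundant genes. Tests are edgeR's quasi-likelihood test, adjusted by Benjamini-Hochberg over all genes tested; a gene is called where the adjusted p is under 0.05. Fold changes are fitted values on the log2 scale with their standard errors (SE), and group values are means ± SD of CPM over 3 libraries. In bulk tissue, fewer cells of a type and less RNA per cell cannot be told apart.

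Promoter sequence is shown for Jag2, Dll4 and Notch3. Their mean levels were lower at 8 than at 2 months in each of the 4 groups compared below, and their windows lie wholly outside the annotated gene; Jag1 and Notch4 met the first condition only. RefSeq starts (GRCm38.p6) were matched for 8 of the 10 genes, Hes1 and Hey1 being those not matched. Each window holds the 250 bases before the start, written 5′ to 3′ on the strand of the gene, and capitals mark the N box, CACNAG or its reverse complement CTNGTG, a motif named for binding by Hes repressors; the window of Jag2 holds none.

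Jag2, chr12:112929496-112929745, minus strand: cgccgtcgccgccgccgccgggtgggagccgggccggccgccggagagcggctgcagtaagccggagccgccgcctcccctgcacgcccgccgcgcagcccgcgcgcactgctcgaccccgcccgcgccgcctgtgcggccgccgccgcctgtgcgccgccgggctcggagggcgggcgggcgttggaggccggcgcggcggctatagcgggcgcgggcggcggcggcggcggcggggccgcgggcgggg
Dll4, chr2:119325534-119325783, plus strand: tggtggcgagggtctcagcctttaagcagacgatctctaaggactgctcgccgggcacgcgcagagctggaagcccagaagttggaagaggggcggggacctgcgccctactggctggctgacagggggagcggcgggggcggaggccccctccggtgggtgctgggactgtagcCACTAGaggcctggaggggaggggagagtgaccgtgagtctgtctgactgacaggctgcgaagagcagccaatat

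Notch3, chr17:32166891-32167140, minus strand: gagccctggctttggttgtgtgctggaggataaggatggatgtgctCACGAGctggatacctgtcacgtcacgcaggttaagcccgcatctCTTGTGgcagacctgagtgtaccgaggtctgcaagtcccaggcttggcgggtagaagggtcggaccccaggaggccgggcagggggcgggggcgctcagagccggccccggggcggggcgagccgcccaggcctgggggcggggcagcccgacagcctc

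The N box was found once in the windows of Dll4, Notch1 and Notch2 and at 2 places in that of Notch3, and was absent from those of Jag1, Jag2, Dll1 and Notch4. Of all 32851 promoter windows of the same length, 36.7% held at least 1. The RBPJ core TGGGAA, or TTCCCA on the other strand, was in none of the windows of the 8 genes and in 21.6% of all windows. The E box CACGTG, which reads alike on both strands, was in none of them and in 6.02% of all windows. The motifs were searched on both strands, and since only the N box matched, no matches overlapped those of another motif. GC content was 65.6% for Dll4, 68.8% for Notch3 and 87.2% for Jag2, with 54 CpG sites in the window of Jag2, against a median GC of 52.4% over all windows.

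Per kilobase of exon, the target Hes1 was the most abundant of the 10 transcripts, with a median of 36.5 CPM per kb over 30 libraries. Notch2 followed at 9.06, the 2 Jagged ligands at 7.17 (Jag2) and 7.07 (Jag1), Notch3 at 4.79, Hey1 at 4.56, Dll4 at 4.04, Dll1 at 3.64, Notch4 at 3.45 and Notch1 at 3.06 CPM per kb. The ranges over libraries overlapped between each of these neighbours except the first, since the lowest Hes1 library, at 21.0 CPM per kb, lay above the highest Notch2 library, at 12.2. Notch1 varied most, with its highest library 6.12 times its lowest; the other 9 genes spanned 2.15 to 3.30 times. The genes lie on 5 autosomes: Jag1, Dll4 and Notch1 on chromosome 2, Notch2 and Hey1 on chromosome 3, Jag2 on chromosome 12, Hes1 on chromosome 16, and Dll1, Notch3 and Notch4 on chromosome 17 (GRCm38). Counting did not use strand, and exons of Dll1, Dll4, Notch1, Notch2 and Notch3 share 214 to 1068 bases with another annotated gene; those neighbours had at most 88 counts in any library, against at least 138 for the 10 genes.

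**Figure D1:**
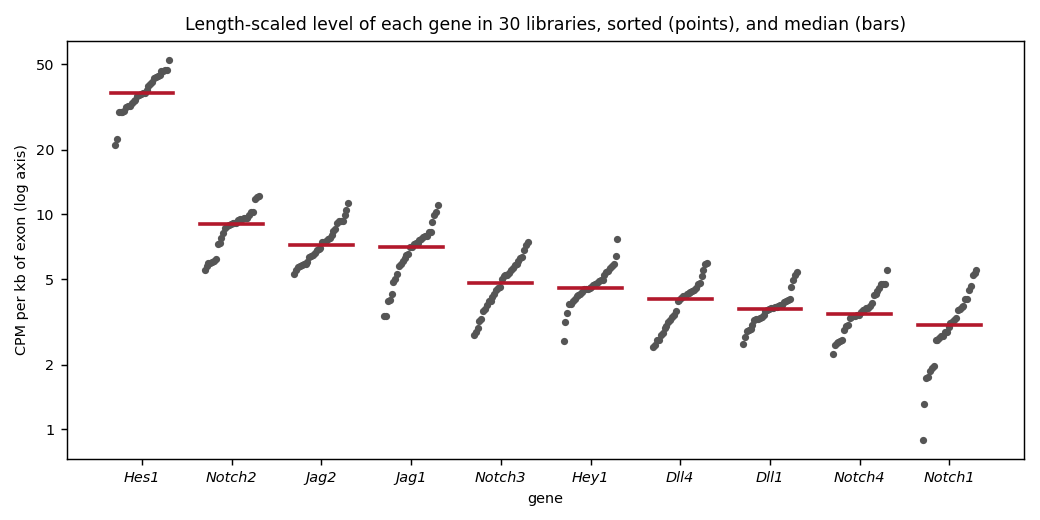
CPM per kilobase of exon (vertical log axis) of each gene in all 30 libraries, sorted within the gene (points), with the median (bars). Hes1 stands above the other 9 genes without overlap, and Notch1 has the widest spread.

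The comparison of 8 with 2 months asks how each gene changed between young adult and later adult thyroids. In wild-type males, the ligand Jag1 and the receptor Notch3 fell. Jag1 was 59.9, 53.6 and 44.6 CPM in the 2-month males numbered 1 to 3, and 23.1, 19.7 and 30.7 CPM at 8 months. Every 8-month library was below every 2-month library. The means were 52.7 ± 7.7 and 24.5 ± 5.61 CPM (n = 3 each), a log2 difference of -1.10 ± 0.16 (SE, adjusted p = 0.00311, edgeR).

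Notch3 was 45.3, 59.8 and 41.5 CPM at 2 months and 25.8, 22.1 and 28.5 CPM at 8 months, again without overlap. Its log2 difference was -0.93 ± 0.17 (SE, adjusted p = 0.0117, edgeR), from a mean of 48.9 ± 9.67 to one of 25.4 ± 3.25 CPM (n = 3 each). Of the 10 genes, 2 were called lower, Jag1 and Notch3, and 0 higher; of all 18493 genes tested, 0.692% were called (0.157% to 0.29% with 1 library left out) and 0.27% were called lower. In all, 9 of the 10 differences were below 0, with a median of -0.53 against 0.00 over all genes. The call for Notch3 was lost without the 2-month male 2 (adjusted p = 0.072), the 8-month male 1 (0.0597) or the 8-month male 2 (0.0735).

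The other ligands and receptors of the same comparison were not called. Dll4, the endothelial ligand, was 20, 17.6 and 17.1 CPM at 2 months and 11.4, 10.1 and 10.6 CPM at 8 months (log2 difference -0.76, adjusted p = 0.108). Notch4, the endothelial receptor, had group means of 33.0 ± 5.85 and 21.9 ± 2.01 CPM (-0.58, adjusted p = 0.219), and Jag2 means of 33.5 ± 6.8 and 23.9 ± 0.486 CPM (-0.47, adjusted p = 0.227). Neither Dll4, Notch4 nor Jag2 had overlapping libraries between the ages; in all, 6 of the 10 genes had none, and 21.2% of all genes. Hey1 had means of 21.2 ± 3.63 and 12.2 ± 3.39 CPM (-0.80, adjusted p = 0.102), whereas Hes1 had 82.2 ± 16.0 and 80.0 ± 17.7 CPM (-0.03). Dll1, Notch1 and Notch2, with log2 differences of -0.15, -0.45 and 0.11, had overlapping libraries. DESeq2 called Dll4 and Hey1 in addition, at adjusted p = 0.0247 and 0.0186. It called 490 of the 36053 genes it tested without the filter on low counts (1.36%). That share is over more genes than the 18493 of edgeR, so the 2 shares are not alike.

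Jag1 and Notch3 differed in how they behaved when the 2-month controls were replaced by the males numbered 4 to 6, a choice made after the data were seen. With those controls, Jag1 was no longer lower (log2 difference 0.12, adjusted p = 0.689), while Notch3 (-0.55, adjusted p = 0.0393), Dll4 (-0.69, adjusted p = 0.0269) and Notch4 (-0.62, adjusted p = 0.0304) were called lower; 18.6% of all genes were then called. With all 6 of the 2-month males, Notch3 (-0.76, adjusted p = 0.0241) and Dll4 (-0.73, adjusted p = 0.0442) were called, with 1.94% of all genes, and Jag1 was not (-0.62, adjusted p = 0.269). The lower Notch3 at 8 months thus kept its call with each choice of controls, and the lower Jag1 did not.

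In wild-type females, edgeR and DESeq2 each called 0 of the 10 genes between 8 and 2 months. Of all genes, edgeR called 0.254% (0.0524% to 1.11% with 1 library left out). At an unadjusted p under 0.05 there were 2 of the 10, and 8.55% of all genes (edgeR). The 10 differed by -0.59 to 0.24. Notch3 was 40.1, 42.8 and 51.0 CPM at 2 months and 33.0, 22.8 and 31.8 CPM at 8 months (log2 difference -0.59 ± 0.17, adjusted p = 0.156), without overlap. Dll4 was 13.7, 22.5 and 15.7 CPM at 2 months and 11.6, 10.8 and 12.9 CPM at 8 months (-0.54 ± 0.21, adjusted p = 0.415), also without overlap. With Jag2, 3 of the 10 genes did not overlap, against 12.4% of all genes. Jag1, which was called in wild-type males, had female means of 41.2 ± 3.12 and 37.2 ± 4.86 CPM (-0.13, adjusted p = 0.925) with overlapping libraries. Whether the change of Jag1 with age differed between the sexes was not tested.

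In FAD4T males edgeR called 0 of 10 between the ages, against 1.57% of all genes (0.0632% to 20.7% with 1 library left out). At an unadjusted p under 0.05 there were 7 of the 10, and 28.3% of all genes (edgeR). The 10 genes differed by -0.70 to 0.51. Dll4 was 16.1, 23.0 and 18.3 CPM at 2 months and 12.5, 10.1 and 12.2 CPM at 8 months (log2 difference -0.70 ± 0.21, adjusted p = 0.0683). Notch3 was 36.6, 44.3 and 46.6 CPM at 2 months and 32.0, 30.4 and 26.2 CPM at 8 months (-0.50 ± 0.17, adjusted p = 0.0845). Neither overlapped between the ages, and both were called by DESeq2, at 0.0246 for Dll4 and 0.0449 for Notch3. DESeq2 called 1714 of the 36053 genes it tested without the filter on low counts (4.75%). Without the 2-month male 1, edgeR called Dll4 (adjusted p = 0.0294), Jag2 (0.0293) and Notch3 (0.0397), 3 of the 10, while 20.7% of all genes were called. Jag1 (45.1 ± 3.57 and 33.4 ± 3.76 CPM, -0.41, adjusted p = 0.121) and Hes1 (98.8 ± 6.99 and 70.3 ± 3.82 CPM, -0.47, adjusted p = 0.135) also had no overlap. Notch2 had the opposite sign, with means of 68.9 ± 8.02 at 2 months and 96.8 ± 9.56 CPM at 8 months (0.51, adjusted p = 0.141), again without overlap. In all, 5 of the 10 genes did not overlap, and 32.2% of all genes. Without the 5 thymocyte-rich libraries, 1 FAD4T male of 2 months was left, whose spread was taken from the other groups. The differences were then -0.54 for Dll4, -0.38 for Notch3 and 0.01 for Jag2.

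In FAD4T females 2 of the 10 had an unadjusted p under 0.05, against 34.8% of all genes (edgeR). After adjustment edgeR and DESeq2 called 0 of 10, while edgeR called 10.1% of all genes. That share changed with single libraries. It was 0.021% without the 2-month female 1, 0.0947% without 2 and 35.4% without 3, and 0.251% to 1.98% without 1 of the 8-month females. The 10 genes differed by -0.44 to 0.39. The differences were -0.33 for Dll4, -0.27 for Notch3 and -0.44 for Notch4, with adjusted p of 0.26, 0.247 and 0.14 in that order. Notch4 was 36.6, 35.4 and 38.2 CPM at 2 months and 29.6, 20.7 and 29.7 CPM at 8 months, without overlap, and Notch3 had none either, against 30.9% of all genes. Without the thymocyte-rich libraries, which left 1 female of 2 months, Notch4 differed by -0.52, Notch3 by -0.39 and Dll4 by -0.17. Dll1 was called lower (-0.43, adjusted p = 0.0446) when the 2-month female 3 was left out. Dll4, Notch3 and Notch4 thus had a lower mean at 8 months in all 4 groups, and Jag1 and Jag2 did too. Without the thymocyte-rich libraries, however, Jag1 differed by 0.11 in FAD4T females and Jag2 by 0.01 in FAD4T males. The genes were chosen with such results known. The share of all genes that were lower in all 4 groups is not given, so this is a description only.

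**Figure D2:**
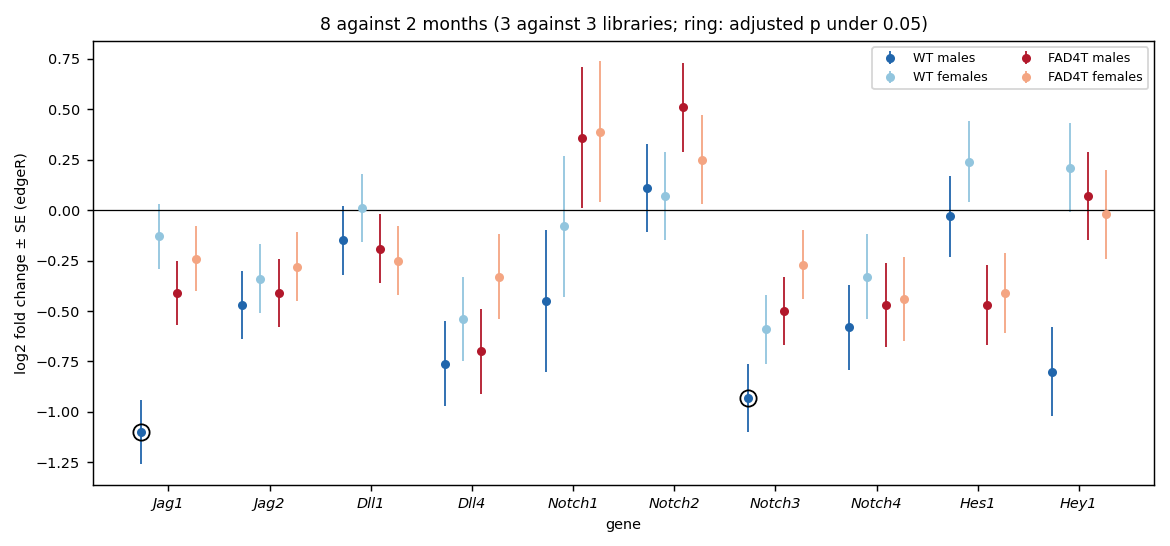
Log2 fold change ± SE (vertical axis) at 8 against 2 months for each gene, in wild-type and FAD4T males and females, with rings where the adjusted p is under 0.05. Jag1, Jag2, Dll4, Notch3 and Notch4 lie below 0 in all 4 groups, and only Jag1 and Notch3 in wild-type males carry rings.

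Markers of vessels and of some other cell types were set beside these values. Over 14 endothelial markers, all 14 differences were below 0 at 8 months in wild-type males (median log2 difference -0.56, 1 called, Tie1) and all 14 in wild-type females (-0.30, 0 called). In FAD4T males 11 of 14 were below 0 (-0.13) and in FAD4T females 9 of 14 (-0.07). Over 12 markers of mural and smooth muscle cells, 10, 10, 8 and 6 were below 0 in the same order, and Pdgfrb, a receptor that marks pericytes, was called lower in wild-type males (-0.85, adjusted p = 0.00311), FAD4T males (-0.68, adjusted p = 0.0191) and FAD4T females (-0.48, adjusted p = 0.0318). In FAD4T females the other 6 mural markers were above 0, among them Acta2 (0.25), Myh11 (0.43) and Mcam (0.41), none called. Without the thymocyte-rich libraries Pdgfrb differed by -0.47 in FAD4T males and -0.48 in FAD4T females. That fit left 1 FAD4T library of 2 months in each sex, so it cannot show whether a call depended on those left out. The mean log2(CPM + 1) of the endothelial list was 5.65 to 6.09 in wild-type males of 2 months and 5.13 to 5.54 at 8 months, and that of the mural list 4.46 to 4.81 and 4.14 to 4.44; no gene of either list was at 0 in any library. Over 8 genes of thymic epithelium, that mean went from 3.28 at 2 months to 2.49 at 8 months in FAD4T males and from 3.51 to 2.30 in FAD4T females. It went from 2.64 to 2.02 in wild-type males and from 2.21 to 2.32 in wild-type females. The part of these cell types in the lower Dll4, Notch3 and Notch4 was not tested.

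Among other genes of the pathway, Egfl7, a secreted protein of endothelial cells that also stands in the endothelial list, was called lower at 8 months in FAD4T males (-1.28, adjusted p = 0.0188) and FAD4T females (-1.07, adjusted p = 0.0212). Mfap5, an extracellular matrix protein reported to bind Notch receptors and ligands, was called in the same comparisons (-1.10, adjusted p = 0.0341, and -1.13, adjusted p = 0.0202). In FAD4T females the co-repressor Tle2 (-0.94), the fringe glycosyltransferases Lfng (-0.76) and Mfng (-0.76), which modify the receptors, and the ubiquitin ligase Neurl3 (-0.88) were also called lower. Without the thymocyte-rich libraries Egfl7 differed by -0.76 in males and -0.58 in females, and Mfap5 by -0.98 and -0.82. In females Tle2 differed by -0.29, Lfng by -0.68, Mfng by -0.27 and Neurl3 by -0.46. That fit left 1 FAD4T library of 2 months in each sex, so it cannot show whether these calls depended on those left out. Of the 6 libraries of each comparison left out in turn, the calls remained only without the 2-month male 1 or the 2-month female 3, and for Mfap5 in females also without the 8-month female 3. Of the 68 other pathway genes tested, of 71 listed, 2 were called in FAD4T males and 6 in FAD4T females. The shares of all genes called there were 1.57% and 10.1%. In wild-type mice 0 of the 68 were called between 8 and 2 months, against 0.692% of all genes in males and 0.254% in females.

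The comparison of FAD4T with wild type asks whether genotype altered the pathway at each sex and age. edgeR called 0 of the 10 genes in each of the 4 comparisons. In males of 2 months 0.0% of 18493 genes were called, in females of 2 months 0.0%, in males of 8 months 0.0% and in females of 8 months 0.0216%. At an unadjusted p under 0.05 there were 1, 2, 1 and 2 of the 10 genes, and 14.5%, 16.7%, 1.81% and 4.66% of all genes, in the same order. DESeq2 called 0 of the 10 in each. The 10 genes differed by -0.60 to 0.27, 0.01 to 0.42, -0.17 to 0.47 and -0.41 to 0.61 on the log2 scale, again in that order.

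Jag1 gave the following values. It was 41.1, 45.9 and 48.1 CPM in FAD4T and 59.9, 53.6 and 44.6 CPM in wild-type males of 2 months, and the log2 difference was -0.22 ± 0.16 (adjusted p = 0.459). It was 64.4, 57.7 and 42.2 CPM in FAD4T and 44.4, 38.1 and 41.2 CPM in wild-type females of 2 months (0.41 ± 0.16, adjusted p = 0.238). At 8 months FAD4T males had 29.2, 36.5 and 34.3 CPM against 23.1, 19.7 and 30.7 in wild-type males (0.47 ± 0.16, adjusted p = 1.0). FAD4T females of that age had 48.0, 45.8 and 42.9 CPM against 33.6, 35.2 and 42.7 (0.30 ± 0.16, adjusted p = 1.0), and only here did the genotypes not overlap for Jag1. Without the thymocyte-rich libraries Jag1 differed by -0.34 in males of 2 months and 0.54 in males of 8 months (adjusted p = 1.0 each). Averaged over the 4 strata, the difference of Jag1 was 0.24 ± 0.08 (adjusted p = 0.22), with 0.0% of all genes called in that average. The 10 genes there differed by -0.04 to 0.24, with Jag2 at 0.24 and Notch3 at 0.23 (adjusted p = 0.234 each, edgeR).

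In females of 2 months the call depended on 1 library. Without FAD4T female 3, edgeR called Jag1 (0.55, adjusted p = 0.0303) and Dll1 (0.60, adjusted p = 0.0238) higher, and Jag1 in the average over strata (0.27, adjusted p = 0.0415). In these fits 15.8% and 6.87% of all genes were called. That library is the 1 of its group that is not rich in thymocyte transcripts. Without the 5 thymocyte-rich libraries, which left 1 FAD4T female of 2 months, the differences in these females were 0.06 for Jag1 and -0.02 for Dll1. The thymocyte list was higher in FAD4T by a median log2 difference of 6.31 in males and 4.18 in females of 2 months and 4.13 in males of 8 months, with 0 of 9 genes called; its part in the Notch genes was not tested.

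The other ligands were not called either. Jag2 was 35.4 ± 4.3 CPM in FAD4T and 29.4 ± 1.22 CPM in wild-type females of 2 months (0.27, adjusted p = 0.406) and 27.3 ± 1.15 and 23.9 ± 0.486 CPM in males of 8 months (0.21, adjusted p = 1.0), without overlap in both; it differed by 0.14 in males of 2 months and 0.33 in females of 8 months. With the thymocyte-rich libraries left out Jag2 differed by 0.14 in females of 2 months, 0.18 in males of 8 months and -0.30 in males of 2 months. Dll4 differed by 0.01 to 0.22 over the 4 comparisons, and Dll1 by -0.03 to 0.42.

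Among the receptors, libraries of the genotypes did not overlap for 1 gene in each of 3 comparisons, without a call. Over all 10 genes 2, 2, 1 and 2 did not overlap, against 12.2%, 9.79%, 10.8% and 12.9% of all genes, in males and females of 2 months and males and females of 8 months. Notch2 was 78.1, 64.2 and 64.3 CPM in FAD4T males of 2 months and 84.0, 101.0 and 97.4 CPM in wild-type males (log2 difference -0.45 ± 0.22, adjusted p = 0.345). Notch4 was 36.6, 35.4 and 38.2 CPM in FAD4T females of 2 months and 27.4, 28.8 and 31.3 CPM in wild-type females (0.33 ± 0.21, adjusted p = 0.398). Notch3 was 47.4, 36.9 and 48.7 CPM in FAD4T females of 8 months and 33.0, 22.8 and 31.8 CPM in wild-type females (0.61 ± 0.17, unadjusted p = 0.00174, adjusted p = 0.946, edgeR). In those 8-month females, 13 of 14 endothelial markers (median 0.26) and 9 of 12 mural markers (0.25) also had differences above 0, and all 8 skeletal muscle markers were below 0 (median -7.38); their part in the Notch3 value was not tested. Notch2 in males of 2 months differed by -0.25 and Notch4 in females of 2 months by 0.42 without the thymocyte-rich libraries (adjusted p = 1.0 each); the females of 8 months held none of them. Notch1 had overlapping libraries in all 4 comparisons, with SDs of 2.03 to 20.5 CPM around group means of 36.5 to 58.1 CPM.

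The targets Hes1 and Hey1 did not follow 1 direction. Hey1 was 16.0, 14.7 and 11.3 CPM in FAD4T males of 2 months and 17.8, 20.9 and 25.0 CPM in wild-type males (-0.60 ± 0.22, unadjusted p = 0.012, adjusted p = 0.343, edgeR), without overlap. In the other 3 comparisons Hey1 differed by 0.06 to 0.29. Hes1 differed by 0.27 and 0.24 in males and females of 2 months and by -0.17 and -0.41 at 8 months, with overlapping libraries each time. Without the thymocyte-rich libraries, at 2 months Hey1 differed by -0.39 in males, and Hes1 by 0.21 in males and 0.07 in females. The test of whether the genotype difference itself differed between the sexes gave 0 of 10 calls and 0.0% of all genes at 2 months, and 0 and 0.0% at 8 months. The test between the ages gave 0 of 10 and 0.0% in males and 0 of 10 and 0.0% in females, and the sex difference for Hey1 at 2 months was 0.89 ± 0.31 (adjusted p = 1.0). Between the sexes the values of the 10 genes ran from -0.06 to 0.89 at 2 months and from -0.25 to 0.37 at 8 months. Between the ages they ran from -0.44 to 0.86 in males and from -0.66 to 0.46 in females.

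With the males numbered 4 to 6 as the wild-type controls of the 2-month FAD4T males, chosen after the data were seen, Jag1 (1.0, adjusted p = 0.00045), Jag2 (0.47, adjusted p = 0.0457) and Hes1 (0.57, adjusted p = 0.0346) were called higher, 3 of the 10, with 25.3% of all genes called. With all 6 controls 0 were called, against 0.989% of all genes, and Jag1 differed by 0.26 (adjusted p = 0.551). The sign for Jag1 in young males, -0.22 with the numbers 1 to 3, thus turned on which wild-type males stood as controls.

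**Figure D3:**
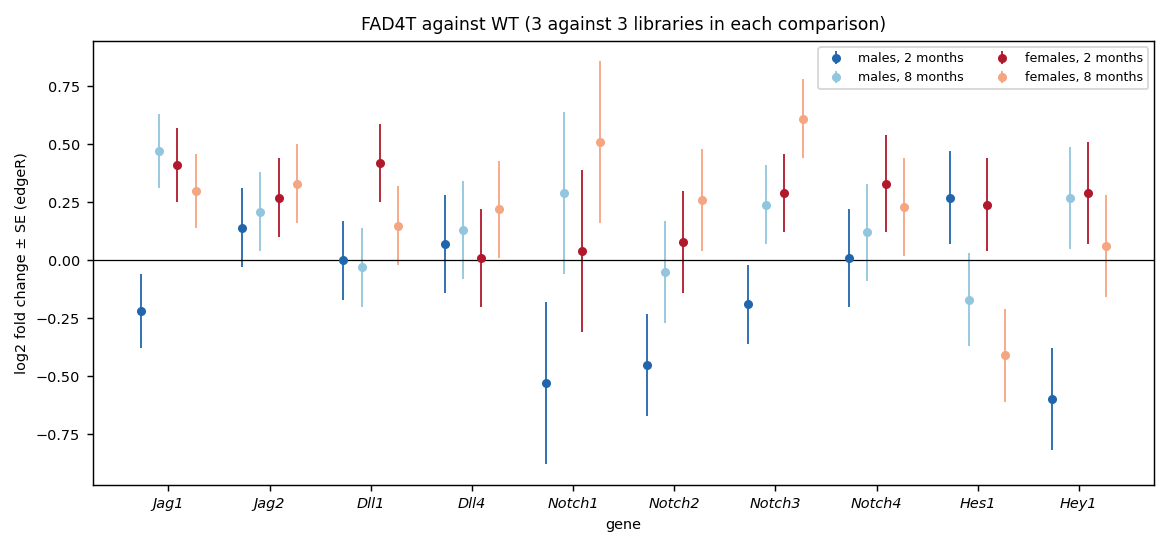
Log2 fold change ± SE (vertical axis) of FAD4T against wild type for each gene in the 4 combinations of sex and age, 3 against 3 libraries each. No gene carried an adjusted p under 0.05, and Jag1 lies on both sides of 0.

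None of the 68 other pathway genes tested, of 71 listed, was called in any genotype comparison with all libraries. Without FAD4T female 3 of 2 months, where 15.8% of all genes were called, Neurl3, Tle3, Egfl7, Il2ra, Ptcra, Aph1a, Aph1b and Numbl were among those called in females of that age, and without FAD4T male 1 of 2 months Tle4 was called in males. By unadjusted p, Neurl3, an E3 ligase, came first, at 26.1 ± 6.95 CPM in FAD4T and 11.2 ± 4.48 CPM in wild-type females of 2 months (log2 difference 1.22 ± 0.26, adjusted p = 0.153). The co-repressors Tle4 in males of 2 months (-0.59, adjusted p = 0.343) and Tle3 in females of 2 months (0.58, adjusted p = 0.174) followed, with the coactivator Maml1 in males of 2 months (-0.35, adjusted p = 0.343). Of the Notch targets of developing T cells, Il2ra differed by 0.44 in the average over strata. Ptcra, also in the thymocyte list, was 1.43 ± 2.16 CPM in FAD4T and 0.0608 ± 0.0584 CPM in wild-type males of 2 months, with overlapping libraries. Myc differed by 0.87 in males of 2 months (17.7 ± 9.6 against 9.68 ± 2.02 CPM). For the fringe Rfng in those males the values were 45.3 ± 7.64 and 30.9 ± 4.14 CPM (0.55), and for the glycosyltransferase Gxylt2 4.37 ± 0.512 and 6.57 ± 0.368 CPM (-0.58), all with adjusted p = 0.343. Eogt, which adds GlcNAc to Notch repeats, differed by 0.32 in the average, and Egfl7 by 0.32. The gamma-secretase subunits Aph1b (-0.50) in females of 2 months and Aph1a (-0.25) in the average each had an adjusted p of 0.326. The Notch antagonists Numb (0.16 in the average) and Numbl (0.45 in females of 2 months), and the noncanonical ligands Dlk1 (0.98 in males of 2 months) and Dlk2 (2.03 in females of 2 months), both under 1 CPM, were likewise not called. Without the thymocyte-rich libraries the differences were 0.81 for Neurl3, 0.47 for Tle3, -0.20 for Tle4, -0.33 for Maml1, -0.54 for Myc, 0.28 for Rfng, -0.41 for Gxylt2, 0.01 for Aph1b, 0.16 for Numbl, 0.49 for Dlk1 and -0.13 for Dlk2 in the comparisons given, and 0.24 for Il2ra, 0.07 for Eogt, 0.06 for Egfl7, 0.00 for Aph1a and 0.03 for Numb in the average (adjusted p = 1.0 each).

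Between the sexes of wild-type mice, edgeR called 0 of the 10 genes at 2 months, where the males were those numbered 1 to 3. Of all genes, 0.0757% were called there. At 8 months it called 0 of 10, with 0.27% of all genes. DESeq2 also called 0 at both ages. With edgeR, 2 and 1 of the 10 had an unadjusted p under 0.05, against 6.69% and 5.09% of all genes. At 2 months the log2 differences of females from the males numbered 1 to 3 were -0.60 to -0.07. All 10 genes thus had a lower mean in females. Jag1 and Hey1 did so without overlap: the females had 41.2 ± 3.12 against 52.7 ± 7.7 CPM for Jag1 (-0.35, adjusted p = 0.689) and 14 ± 3.18 against 21.2 ± 3.63 CPM for Hey1 (-0.60, adjusted p = 0.387). At 8 months Jag1 was 33.6, 35.2 and 42.7 CPM in females and 23.1, 19.7 and 30.7 CPM in males (0.62 ± 0.16, adjusted p = 0.221), also without overlap and in the opposite direction. Libraries of the sexes did not overlap for 2 of the 10 genes at 2 months and 1 at 8 months, against 7.89% and 12.4% of all genes. The other 9 genes differed by -0.14 (Notch2) to 0.41 (Hey1) at 8 months. The 2-month males numbered 4 to 6 had 24.9, 19.5 and 23.2 CPM for Jag1, below every female library of that age (44.4, 38.1 and 41.2 CPM). Set against the means of those males, females were higher for each gene except Dll4 (17.3 CPM in both) and Notch4 (29.2 against 33.7 CPM). Females were not tested against those males.

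The ageing comparison set 18-month against 2-month wild-type males, with the males numbered 4 to 6 as controls. Of the 10 genes, 4 were called higher, Notch1, Notch2, Jag1 and Jag2, and 0 lower. Of 16283 genes tested, 35.9% were called, 17.1% higher and 18.8% lower. Calls were thus common among all genes in this comparison, and the median over the 10 genes was 0.18 against -0.01 over all genes.

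Notch1 had the largest difference of the 10. It was 27.5, 18.7 and 12.8 CPM in the young males and 63.1, 57.3 and 74.4 CPM at 18 months. The means were 19.6 ± 7.39 and 64.9 ± 8.66 CPM (n = 3 each), a fold of 3.22 (95% interval 2.26 to 4.59, log2 difference 1.69 ± 0.26, adjusted p = 0.00313, edgeR). Every 18-month library was above every control, and the call held without each of the 6 libraries in turn.

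Notch2 was 66.7, 79.5 and 61.9 CPM in the young males and 127.0, 96.3 and 131.0 CPM at 18 months (0.73 ± 0.15, adjusted p = 0.00683). Jag1 was 24.9, 19.5 and 23.2 CPM and 37.9, 28.2 and 46.0 CPM (0.69 ± 0.18, adjusted p = 0.0192). Jag2 was 30.4, 23.1 and 26.3 CPM and 42.6, 37.7 and 33.9 CPM (0.48 ± 0.15, adjusted p = 0.0328). None of these 3 overlapped between the ages; with Notch1 and Notch4, 5 of the 10 genes did not, and 51.1% of all genes. Notch2 was called without each library in turn. Jag1 was not called without young male 5 (adjusted p = 0.0684) or 18-month male 3 (0.0595), nor Jag2 without young male 5 (0.0942) or 6 (0.0711) or 18-month male 1 (0.103) or 2 (0.0637).

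Notch4, Dll4 and Notch3 had the opposite sign and were not called. Notch4 was 38.3, 33.9 and 28.8 CPM in the young males and 24.6, 26.9 and 28.2 CPM at 18 months (-0.38 ± 0.14, adjusted p = 0.0661), without overlap. Dll4 was 16.6, 18.5 and 16.8 CPM and 13.2, 9.52 and 17.0 CPM (-0.43 ± 0.21, adjusted p = 0.146), and Notch3 was 42.1, 34.1 and 35.8 CPM and 23.8, 29.1 and 42.1 CPM (-0.28 ± 0.20, adjusted p = 0.323). The 18-month male 3 was the highest of its group for both Dll4 and Notch3, and without it both were called lower (Dll4 -0.64, adjusted p = 0.0479; Notch3 -0.52, adjusted p = 0.0473), with 29.2% of all genes called. Hes1, Hey1 and Dll1 differed by -0.19, 0.03 and 0.33 and overlapped.

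Within a library, the ratio of length-scaled Notch1 to Notch4 does not depend on the scaling of libraries. It was 0.251 to 0.406 in the young males numbered 4 to 6 and 1.21 to 1.49 at 18 months. In the young males numbered 1 to 3 it was 0.731 to 1.13, and in wild-type males of 8 months 0.866 to 1.10. The ratio of Jag1 to Dll4 was 0.697 to 0.988 in the males numbered 4 to 6, 1.79 to 1.96 at 18 months and 1.72 to 2.02 in the males numbered 1 to 3.

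The 2 sets of young males carry the same labels for strain, sex, genotype and age, and some of the 10 genes differed between them. In the males numbered 4 to 6 against 1 to 3, Jag1 (-1.22 ± 0.18, adjusted p = 9.21e-05), Notch1 (-1.43 ± 0.36, adjusted p = 0.00636) and Hey1 (-0.65 ± 0.20, adjusted p = 0.0245) were called lower and none higher. Over all 18799 genes, 21.6% were called and 11.5% were called lower. Jag1 had means of 22.5 ± 2.73 and 52.7 ± 7.7 CPM, Notch1 19.6 ± 7.39 and 53.0 ± 20.2 CPM, and Hey1 13.6 ± 1.09 and 21.2 ± 3.63 CPM. Libraries did not overlap for these 3 genes or for Notch2, 4 of 10, against 38.8% of all genes. Notch2 (-0.44, adjusted p = 0.136), Notch3 (-0.39, 0.135), Dll1 (-0.35, 0.229), Jag2 (-0.33, 0.17) and Hes1 (-0.30, 0.286) were not called. Dll4 (-0.07) and Notch4 (0.03) were close to equal in mean, with SEs of 0.21 and 0.20. The calls of Notch1 and Hey1 were lost without male 2 (adjusted p = 0.0661 and 0.0718) or male 6 (0.0521 and 0.0599). Hey1 was also not called without male 3 (0.137), 4 (0.0627) or 5 (0.118), and Jag1 was called without each of the 6 in turn.

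The 18-month result changed with the choice of young males. With all 6, edgeR called 0 of the 10 genes and 17.5% of all genes: Notch1 differed by 0.84 (adjusted p = 0.125), Notch2 by 0.53 (0.0562), Jag2 by 0.34 (0.128) and Jag1 by -0.01 (0.984). With the males numbered 1 to 3, Notch3 was the 1 of the 10 called (-0.63, adjusted p = 0.0329), with 9.45% of all genes called, while Notch1 differed by 0.29 (0.656), Notch2 by 0.33 (0.352) and Jag1 by -0.50 (0.0768). Dll4 (-0.43, -0.42 and -0.46) and Notch4 (-0.38, -0.33 and -0.31) moved by less than 1 SE over the 3 choices, and neither was called. A difference between sets of mice and one of age cannot be told apart where 1 set is compared with the 18-month males. The young sets also differed in marker levels, as mean log2(CPM + 1). The skeletal muscle list had 8.32 in the males numbered 4 to 6, 4.36 in those numbered 1 to 3 and 8.19 at 18 months. The adipocyte list had 7.17, 6.04 and 5.01 in the same order. Their part in the Notch genes was not tested.

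**Figure D4:**
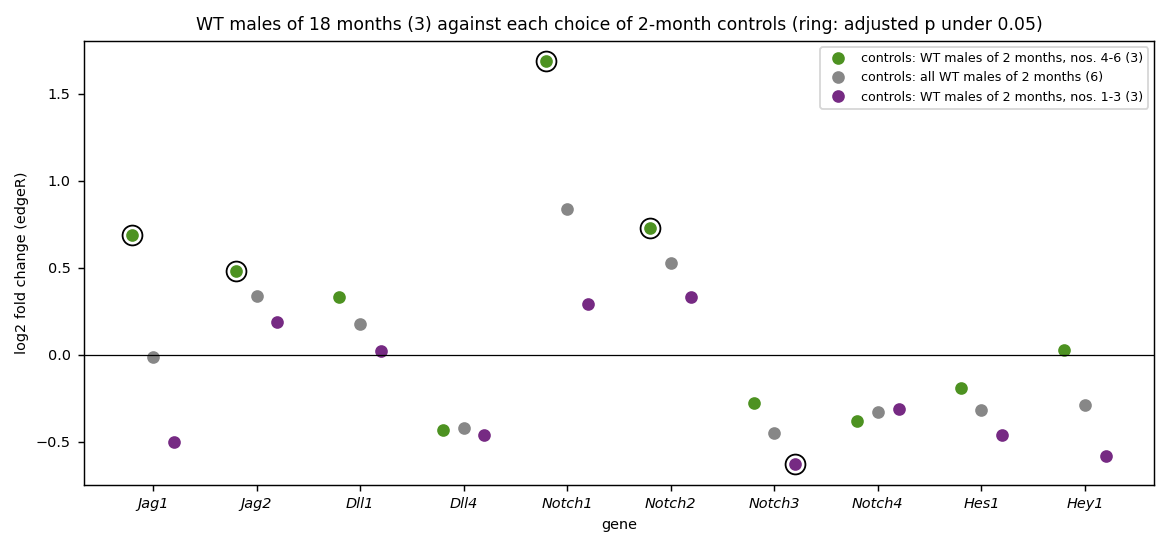
Log2 fold change (vertical axis) of the 3 wild-type males of 18 months against 3 choices of 2-month wild-type males, with rings where the adjusted p is under 0.05. Notch1 falls from 1.69 to 0.29 and Jag1 from 0.69 to -0.50 as the controls change, while Dll4 lies between -0.46 and -0.42.

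In the nuclear complex, 8 of 17 genes were called higher at 18 months against the males numbered 4 to 6, among them Rbpj itself (30.1 ± 2.01 to 48.7 ± 3.85 CPM, 0.66, adjusted p = 0.00431) and the coactivator Ep300 (52.5 ± 0.468 to 101.0 ± 7.89 CPM, 0.90, adjusted p = 0.00124), and 1, Tle2, lower (-0.64). Spen, Kdm5a, Ctbp2, Tle3, Snw1 and Tle4 were the others called higher. Of all genes, 17.1% were called higher and 18.8% lower in that comparison. Rbpj (-0.77) and Ep300 (-0.65) were called lower in the males numbered 4 to 6 against 1 to 3, with Kdm5a, Tle3, Kat2b and Tle4, 6 of 17 in all. Rbpj had 51.5 ± 9.4 CPM in the males numbered 1 to 3. Over all the other pathway lists together, 28 of 65 genes tested were called at 18 months, against 35.9% of all genes. Between the 2 sets of young males 17 of 68 were called, against 21.6% of all genes.

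In the list of proteases, Adam10 (0.41), Adam17 (0.40) and the gamma-secretase subunit Aph1b (0.84) were called higher at 18 months, and Aph1a (-0.38) and Psenen (-1.15) lower, of 10 genes. Of 9 glycosylation genes, Gxylt1 (0.56) and Poglut1 (0.47), which act on receptor repeats, were called higher, and the fringes Rfng (-0.58) and Mfng (-1.38) lower. Of 15 genes of ubiquitination and trafficking, Itch, Aak1, Dtx3l, Mib1 and Dtx4 were called higher and Neurl1b lower. Mib1, the ligase that readies ligands for signalling, went from 70.7 ± 5.18 to 97.2 ± 5.95 CPM (0.42), and was 113.0 ± 10.4 CPM in the males numbered 1 to 3. Among other ligands and regulators, 4 of 6 could be tested, and Egfl7 (-1.29) and Dll3 (-1.53) were called lower. Among other targets, 10 of 14 could be tested, Hey2 (0.96) being called higher and Hes6 (-1.33) lower. Between the 2 sets of young males, Hes6 (0.66) and Cdkn1a (0.99) were called higher and Hey2 (-1.11) lower, Aph1b (-0.72) and Adam10 (-0.65) lower and Psenen (0.88) higher, Rfng (0.74) higher, Itch (-0.89) and Mib1 (-0.68) lower, and Dtx2 (0.43) and Neurl1a (1.78) higher.

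Cell-type markers were also called in the 18-month comparison, where 17.1% of all genes were called higher and 18.8% lower. Of the marker lists, 9 of 14 endothelial markers were called lower (median -0.77), 4 of 11 tested mural markers (-0.73), 4 of 7 adipocyte markers (-2.15) and 4 of 6 Schwann cell markers (-0.62), and none of these lists had a gene called higher. The endothelial list had a mean log2(CPM + 1) of 5.92 to 6.10 in the males numbered 4 to 6, 5.65 to 6.09 in those numbered 1 to 3 and 5.08 to 5.54 at 18 months. Between the sets of young males 1 of 14 endothelial markers, Esam, was called (higher), and 4 of 7 adipocyte markers were called higher in the males numbered 4 to 6, where all 8 skeletal muscle markers were above 0 (median 3.03). Between those sets 21.6% of all genes were called. The part of the cells marked by these lists in the Notch genes was not tested.

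Across all 10 groups, the highest group mean was 1.55 to 3.31 times the lowest, the least for Dll1 and the most for Notch1. For Notch1 the order ran from 18-month males (64.9 ± 8.66 CPM) to the young males numbered 4 to 6 (19.6 ± 7.39 CPM). Of the 9 pairs of neighbouring groups in each gene's order, libraries failed to overlap in 1 pair for Notch1 (FAD4T males of 2 months above the young males numbered 4 to 6), 1 for Hes1 (FAD4T males above FAD4T females of 2 months) and 1 for Dll4 (the young males numbered 4 to 6 above FAD4T females of 8 months). For the other 7 genes every pair of neighbours overlapped. FAD4T females of 2 months had the highest mean for Jag1, Dll1, Notch3 and Notch4, and wild-type males of 8 months the lowest for Dll4, Notch3, Notch4 and Hey1.

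**Figure D5:**
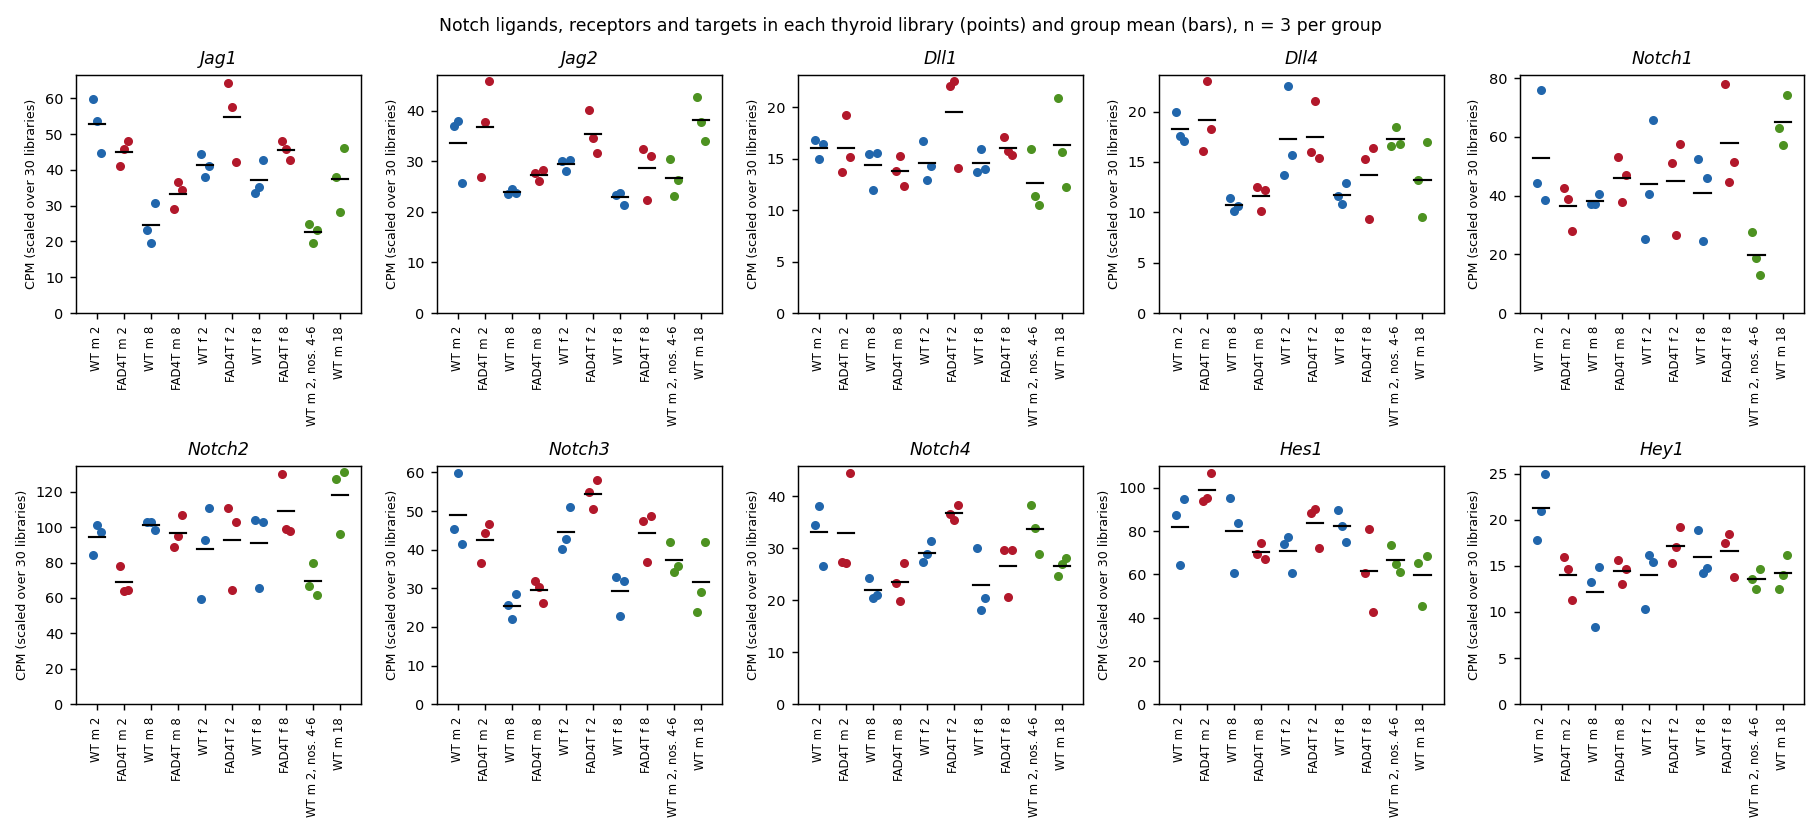
CPM (vertical axes, from 0) of each gene in each library (points) of the 10 groups, with group means (bars); m and f are males and females, numbers are months, blue is wild type and red FAD4T, and green marks the 18-month males and their 2-month controls. The group means of Jag1 and Notch1 are lowest in the 2-month males numbered 4 to 6, and that of Notch3 is lowest in wild-type males of 8 months.

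Correlation between the genes was highest within the receptors. Over the 30 libraries, on the log2(CPM + 1) scale, Notch1 and Notch2 had a Pearson r of 0.81 (Spearman rho 0.76), and 0.79 after group means were removed. Notch3 and Notch4 had r = 0.76 (0.57 within groups), and Dll4 had r = 0.70 with Notch3 and 0.69 with Notch4 (0.36 and 0.26 within groups). Notch1 and Notch4 had r = 0.01, and the lowest value was -0.32, between Notch2 and Hes1. These are descriptions over libraries that share groups, scaling and cell makeup, and carry no p.

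By the same measure, over 11518 genes with a mean of at least 5 CPM, the genes most like Notch1 were Dcbld2 (r = 0.94), Cdc42bpa (0.92) and Kdm2a (0.91). For Notch2 they were Piezo1 (0.92), Aak1 (0.91) and Myof (0.90), for Notch3 Stard8 (0.89), Fgd5 (0.87) and Fat4 (0.86), and for Notch4 Rasip1 (0.82), Arhgef15 (0.82) and Nrp1 (0.79). Dll4 was closest to Neurl1b (0.80), Col9a3 (0.79) and Rps6ka4 (0.79), Dll1 to Clk3 (0.80), Foxn2 (0.79) and Alpk1 (0.78), Jag1 to Ptpn12 (0.90) and Mier3 (0.88), and Jag2 to Trrap (0.84), Baz1b (0.83) and Ttll3 (0.82). For the targets the values were lower: Mplkip (0.76), Kctd6 (0.75) and Siah1a (0.74) for Hes1, and Nr3c1 (0.72), Ube2h (0.72) and Wwtr1 (0.71) for Hey1. After group means were removed the Notch1 values were 0.84 to 0.89 and the Notch2 values 0.86 to 0.88, whereas Jag1 and Ptpn12 fell to 0.46.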

How the data were processed

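The authors deposited raw counts per gene, of paired reads, for each of 30 thyroid libraries. These were made with featureCounts 1.6.0 on the Ensembl release 88 annotation of GRCm38, without using strand, per the file headers. HISAT2 2.0.4, cutadapt 1.9 and StringTie 1.3.4d, and a GRCm39 build that is not the one in the headers, stand in the submitters' processing notes. Of 50686 gene identifiers, 50376 were matched to a symbol. Groups were taken from the titles.

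The 10 genes, the other pathway lists and the marker lists were chosen with earlier results of these data known. Counts were fitted in R 4.3.3 with edgeR 4.0.16 (TMM scaling, filterByExpr with a minimum count of 10, quasi-likelihood test, Benjamini-Hochberg adjustment over all genes, threshold 0.05). The main model had 1 term per group: 24 libraries (18493 genes, 16 residual degrees of freedom) for genotype, sex and 8 against 2 months, 6 libraries (16283 genes, 4) for 18 against 2 months, and 30 libraries (18799 genes, 20) for the sets of young males. The fit was also run on simulated counts. These had 1 spread for all genes, lower than the common spread of the real fits, and no differences in tissue makeup. They do not show how the fit performs on libraries such as these. CPM was computed from the counts, with log2(CPM + 1) for correlations and marker lists. Totals of 14083958 to 20256049 counts gave at least 138 counts for each of the 10 genes in each library.

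All 10 genes are reported in each comparison, by value or by range. Of the other pathway genes, those called and the up to 3 per list with the smallest p for genotype are named; for likeness, the 3 genes with the highest r among those with a mean of at least 5 CPM. The fits were repeated with DESeq2 1.42.0, with edgeR on DESeq2's scaling, without the count filter, with other controls, without each library, and with the replicate number as a block. The deviations of same-numbered libraries had a correlation over 0.1 in all 3 pairs only for FAD4T and wild-type males of 8 months (0.416, 0.402 and 0.511). There 0 genes of the whole table were called with or without the block, so it had no call to remove among the 10 genes. All 3 pairs were also above 0 for FAD4T and wild-type females of 8 months (0.563, 0.288 and 0.0356). The same held for wild-type females and males of 8 months (0.357, 0.391 and 0.0986). Some genes that the naming rules pick are not reported here.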

Additional observations from a re-analysis of the deposited data

Results flagged for a closer look

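With the 2-month males numbered 1 to 3, Jag1 differed between the sexes in opposite directions at the 2 ages in wild-type mice. The log2 difference of females from males was -0.35 at 2 months, where every female library was below each of these males. It was 0.62 at 8 months, where every female library was above every male library. The 2-month males numbered 4 to 6 had 24.9, 19.5 and 23.2 CPM. Every 2-month female library (44.4, 38.1 and 41.2 CPM) was above them, the same direction as at 8 months. Neither log2 difference passed the adjusted threshold, and the change of the sex difference with age was not tested.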

How the results depend on the processing

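Of 2380 values of the 10 genes under alternatives, 2321 moved by less than the spread between replicates, 56 moved by more, and 3 called values turned sign. These 3 were Jag1, at 0.12 for 8 against 2 months in wild-type males with the young males numbered 4 to 6 as controls, and at -0.01 with all 6 and -0.50 with numbers 1 to 3 for 18 against 2 months. The cause was not tested. Counts of the 10 genes called also moved. With males numbered 4 to 6 as controls, 3 were called for FAD4T in males of 2 months, with 25.3% of all genes. DESeq2 called 4 for 8 against 2 months in wild-type males and 2 in FAD4T males. It called 1.36% and 4.75% of the 36053 genes it tested without the filter on low counts. For 18 against 2 months, all 6 controls gave 0 and numbers 1 to 3 gave 1, with 17.5% and 9.45% of all genes. Leaving out 1 library at a time gave 0 to 2 for FAD4T in females of 2 months, 0 to 1 for its average over strata, 1 to 2, 0 to 3 and 0 to 1 for 8 against 2 months in wild-type males, FAD4T males and FAD4T females, 2 to 5 for 18 against 2 months, and 1 to 3 between the sets of young males. The share of all genes called moved in such fits too. Without FAD4T female 3 of 2 months it was 15.8% for FAD4T in females of that age and 6.87% in the average. For 8 against 2 months it was 35.4% in FAD4T females without that library, and 20.7% in FAD4T males without 2-month male 1. For 18 against 2 months it was 29.2% without 18-month male 3. With the replicate block, Jag1 was -1.10 (adjusted p = 0.00558, edgeR) and Notch3 -0.94 (0.0164) for 8 against 2 months in wild-type males. The block moved the genes called over the whole table from 291 to 166 for 8 against 2 months in FAD4T males and from 4 to 1 for FAD4T in females of 8 months. With 3 mice a group, small differences were not detectable.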
